A study of Mus musculus with 6 samples.

Results

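The platelet-derived growth factor (PDGF) family of the mouse comprises the 4 ligand genes Pdgfa, Pdgfb, Pdgfc and Pdgfd and the 2 receptor genes Pdgfra and Pdgfrb. These 6 genes were chosen by symbol from the 55416 gene IDs of the count table, and all 6 were among the 17083 genes that passed the filter on low counts. Whole livers of male mice gave 3 libraries labelled KO and 3 labelled WT. KO mice were Ephb2 flox/flox animals with Pdgfrb-CreERT2, a tamoxifen-inducible Cre recombinase that is active in cells using the Pdgfrb promoter, and WT mice were Ephb2 flox/flox animals without Cre. Every mouse of both groups carried floxed Ephb2, was 8 to 10 weeks old when tamoxifen was injected on 5 days, and then ate a choline-deficient, amino-acid-defined (CDAA) diet for 8 weeks. Fat supplied 45% of the calories of this diet, methionine was at 0.1% and cholesterol at 1%, and mice fed in this way develop steatosis, inflammation and scarring of the liver. Pdgfrb is thus both a member of the family and the gene whose promoter drives the Cre of the KO mice. The labels do not say whether the driver is an insertion at the Pdgfrb locus or a separate transgene, and mice with Cre but intact Ephb2 alleles were not among the groups. An effect of the driver on Pdgfrb and an effect of the deletion therefore cannot be told apart.

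PDGF ligands are secreted dimers that bring together a pair of receptor tyrosine kinases, which then phosphorylate each other and recruit signalling proteins through their phosphotyrosines. PDGF-A and PDGF-C bind receptor alpha, PDGF-B binds both receptors, and PDGF-D acts mainly on receptor beta. PDGF-A and PDGF-B are cut by furin-like convertases inside the cell, whereas PDGF-C and PDGF-D are secreted with a CUB domain that proteases outside the cell must remove. In liver, receptor beta marks hepatic stellate cells, portal fibroblasts and the mural cells of vessels, and PDGF-B is a strong mitogen of activated stellate cells. In whole-liver RNA, fewer cells of a type and less RNA per cell cannot be told apart.

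Total counts were 21160690 to 26339251 in the KO libraries and 21411113 to 23100862 in the WT libraries. Hepatocyte RNA was abundant, as the tissue label implies, with Alb at 54438 ± 8443 TPM (counts divided by gene length and scaled to a fixed sum per library) in KO and 53119 ± 5102 TPM in WT liver (SD, n = 3 each). Acute phase genes set 3 livers apart, since the mean log2 CPM of that list was 7.46, 10.49 and 7.60 in KO replicates 1 to 3 and 9.38, 7.40 and 9.80 in WT replicates 1 to 3. CPM here are counts scaled to a common library size with edgeR's TMM factors. Ephb2, the targeted gene, held 6.01, 8.87 and 6.95 CPM in KO liver, against 9.46, 8.28 and 12.4 CPM in WT liver, and the groups overlapped. The log2 fold change of Ephb2 was -0.46 (SE 0.21, interval -0.94 to 0.01, edgeR adjusted p = 0.850). Cells without Cre activity keep that gene. Their part in the overlap was not tested, and neither was the genotype of each library. Nothing in the labels says that replicates of a genotype share a litter or a batch, and p-values here reflect the spread among these 6 livers.

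Pdgfa (ENSMUSG00000025856) lies on the minus strand of chromosome 5 of GRCm38 at positions 138976014 to 138997370, and Pdgfb (ENSMUSG00000000489) on the minus strand of chromosome 15 at 79995874 to 80014977. Pdgfc (ENSMUSG00000028019) covers 81036416 to 81214040 on the plus strand of chromosome 3, and Pdgfd (ENSMUSG00000032006) 6168584 to 6378850 on the plus strand of chromosome 9. Pdgfra (ENSMUSG00000029231), with up to 23 exons in a transcript, covers 75152292 to 75198215 on the plus strand of chromosome 5, and Pdgfrb is ENSMUSG00000024620, with up to 24 exons. Exons of Pdgfa overlap those of the antisense gene 6330403L08Rik, which had 175 to 225 reads in the KO and 154 to 209 reads in the WT libraries, against 589 to 673 and 429 to 560 reads of Pdgfa. The strand setting of the counting is not given in the sources used here, so reads of that pair may be shared between them. The genes antisense to Pdgfc and Pdgfra had at most 2 reads in any library.

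Pdgfra and Pdgfd followed one another over the 6 libraries, as described further on, and for that reason their promoters are shown. RefSeq windows of 300 bases, from 250 before to 50 after an annotated start on GRCm38.p6, were held for 4 of the 6 genes (Pdgfa, Pdgfc, Pdgfd and Pdgfra), with 2 windows for Pdgfa. The window of Pdgfra is chr5:75152001-75152300 and that of Pdgfd chr9:6168236-6168535, both on the plus strand. The second window of Pdgfa, chr5:138994895-138995194 on the minus strand, is shown as a contrast. All are written 5′ to 3′, and capitals mark a GC box (GGGCGG or its reverse complement), a TATA box (TATAAA or its reverse complement) or a CCAAT box (CCAAT or its reverse complement).
Pdgfra: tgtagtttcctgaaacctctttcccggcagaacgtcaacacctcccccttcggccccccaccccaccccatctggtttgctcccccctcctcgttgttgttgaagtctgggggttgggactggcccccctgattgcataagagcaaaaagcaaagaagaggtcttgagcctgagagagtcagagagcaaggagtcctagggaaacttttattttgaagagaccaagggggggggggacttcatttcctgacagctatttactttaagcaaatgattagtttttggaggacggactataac
Pdgfd: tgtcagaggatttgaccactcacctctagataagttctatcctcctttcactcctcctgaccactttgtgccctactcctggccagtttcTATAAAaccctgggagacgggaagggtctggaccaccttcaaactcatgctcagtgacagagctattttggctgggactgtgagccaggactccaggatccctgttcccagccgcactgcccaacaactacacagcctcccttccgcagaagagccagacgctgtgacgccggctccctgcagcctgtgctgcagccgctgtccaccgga
Pdgfa: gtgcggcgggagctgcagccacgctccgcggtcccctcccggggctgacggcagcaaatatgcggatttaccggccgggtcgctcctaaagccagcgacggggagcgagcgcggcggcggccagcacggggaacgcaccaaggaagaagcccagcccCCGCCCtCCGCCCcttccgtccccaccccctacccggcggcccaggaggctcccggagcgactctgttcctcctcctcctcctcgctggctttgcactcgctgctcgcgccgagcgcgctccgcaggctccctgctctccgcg
The Pdgfra window had none of these motifs and the Pdgfd window had 1, a TATAAA that began 160 bases before the annotated start. The Pdgfa window had 2 adjacent GC boxes, and the other Pdgfa window had 1. Among all 32851 windows of the table, a GC box stood in 35.7%, a TATA box in 13.6% and a CCAAT box in 37.4%, counted on both strands. GC made up 51.0% of the Pdgfra window, 56.7% of the Pdgfd window and 73.3% of this Pdgfa window, against a median of 52.7% over all windows. The Pdgfc window, which is not shown, also had none of these motifs, and GC made up 55% of it. Pearson's r of log2 CPM over the 6 libraries was 0.39 between Pdgfc and Pdgfd and 0.62 between Pdgfc and Pdgfra. A match is a description of the letters only, and a link between these windows and the levels was not tested.

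Per length, the receptor genes had the highest means of the family, and for Pdgfrb the lead over the ligands rested on the length used. With the union of a gene's exons as its length, Pdgfra stood at 46.0 ± 5.17 TPM in KO and 34.0 ± 8.08 TPM in WT liver (SD, n = 3 each), and Pdgfrb at 44.2 ± 7.17 TPM in KO and 38.1 ± 16.8 TPM in WT liver. The ligand genes followed at closely similar levels per length. Pdgfa was at 27.5 ± 3.93 TPM in KO and 22.8 ± 2.85 TPM in WT liver, Pdgfc at 26.4 ± 1.75 and 23.2 ± 2.47 TPM, and Pdgfb at 23.1 ± 1.36 and 20.0 ± 2.46 TPM. Pdgfd was at 22.6 ± 4.47 TPM in KO and 14.8 ± 6.82 TPM in WT liver, the lowest mean of the 6 genes in both genotypes. In both genotypes the receptors differed from each other, and Pdgfa from Pdgfc, by less than either SD, while the step from the receptors to the ligands, from the lower receptor to the highest ligand, was larger than the SD of either gene. Within each of the 6 libraries both receptors were above all 4 ligands with this length. With the longest transcript as length, Pdgfra was at 54.6 TPM in KO and 40.3 TPM in WT liver and above all ligands in each library. Pdgfrb was then at 36.2 TPM in KO and 31.1 TPM in WT liver, within its SD of Pdgfa at 33.6 TPM in KO and 28.0 TPM in WT liver. With that length Pdgfrb lay below Pdgfa in KO replicate 1 (32.8 against 37.3 TPM) and WT replicate 1 (24.4 against 29.5 TPM), and below Pdgfa, Pdgfb and Pdgfc in WT replicate 3 (22.0 TPM, against 24.0 TPM of Pdgfa, the lowest of those 3). For comparison on the same scale, the related receptor gene Csf1r of macrophages was at 143 ± 14.8 TPM in KO and 162 ± 41.1 TPM in WT liver, and Kit at 5.97 ± 0.53 and 5.68 ± 0.67 TPM.

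**Figure D1:**
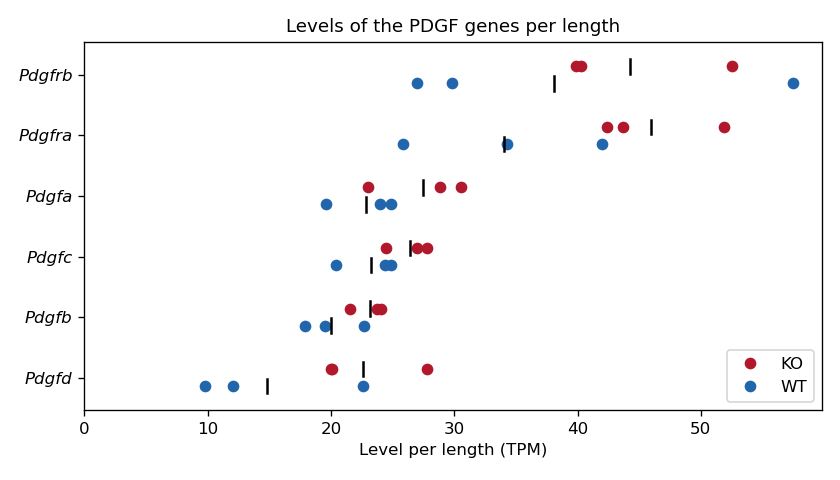
Levels per length (TPM, linear axis from 0) of the 6 PDGF genes, ordered by their mean over all libraries. Each point is 1 library, red for KO and blue for WT, and black ticks are the means. With the union of exons as length, the 2 receptors lie to the right of the ligands within each library. With the longest transcript Pdgfrb is below Pdgfa in 3 of the 6 libraries, and Pdgfd has the lowest mean in both genotypes with either length.

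All 6 PDGF genes had a higher mean in KO liver, and none passed the test. Of all genes tested 49.0% had a positive log2 fold change. The 6 signs are not independent, since Pdgfd, Pdgfra and Pdgfrb were all low in WT replicates 1 and 3. At an adjusted p under 0.05, edgeR's quasi-likelihood test made 0 calls among 17083 genes (0% of those tested, smallest adjusted p = 0.850), and DESeq2 called 8 genes (0.0567% of 14107), none of them a PDGF gene. At an unadjusted p under 0.05, edgeR had 527 genes higher in KO liver (3.08%) and 359 lower (2.1%), 886 in all, and by library size alone 804 of 957 were higher. Pdgfra was the PDGF gene among the 527. Every KO library lay above every WT library in 1061 genes (6.21%) and below in 837 (4.9%), and Pdgfra, among the 1061, was again the 1 PDGF gene. A count of 1 in 6 is the smallest above 0, so it does not set the family apart from these shares.

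Receptor alpha, which is found on stellate cells, portal fibroblasts and other mesenchymal cells, had the clearest separation. Pdgfra was at 135, 132 and 153 CPM in KO replicates 1 to 3 and at 87.8, 127 and 115 CPM in WT replicates 1 to 3. All KO libraries thus lay above all WT libraries, and WT replicate 2 came close to the lowest KO library. The means were 139.9 ± 11.3 CPM in KO and 110.2 ± 20.3 CPM in WT liver (SD, n = 3 each), with a log2 fold change of 0.34 (SE 0.14, 95% interval 0.01 to 0.68). The edgeR adjusted p was 0.850. In an exact two-sided permutation test p was 0.1, the smallest that 3 against 3 libraries allow. The value depended on WT replicate 1, the lowest library, without which the log2 fold change was 0.20 (edgeR adjusted p = 0.920).

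Receptor beta did not separate the genotypes. Pdgfrb was at 68.0, 68.0 and 84.5 CPM in KO replicates 1 to 3 and at 55.4, 95.3 and 49.6 CPM in WT replicates 1 to 3. WT replicate 2 held the highest and WT replicate 3 the lowest level of all libraries, so that the WT range enclosed every KO library. The means were 73.5 ± 9.56 CPM in KO and 66.8 ± 24.9 CPM in WT liver (SD, n = 3 each), a log2 fold change of 0.14 (SE 0.24, 95% interval -0.40 to 0.68, edgeR adjusted p = 0.913). The interval does not show that the levels were alike, since it runs from 0.755 to 1.602 times the WT level. Leaving out WT replicate 2 gave 0.48 (edgeR adjusted p = 0.342) and leaving out WT replicate 3 gave -0.038 (edgeR adjusted p = 0.994), so 1 WT library decided the size and even the sign of this value. Leaving out WT replicate 1 or KO replicate 3 also brought it close to 0, at 0.014 and 0.025.

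Pdgfd, the ligand of receptor beta that needs a protease outside the cell to become active, had the largest difference of the family and a wide error. It was at 19.4, 19.7 and 25.8 CPM in KO replicates 1 to 3 and at 10.4, 21.5 and 12.8 CPM in WT replicates 1 to 3. WT replicates 1 and 3 lay below all KO libraries, and WT replicate 2 lay among them. The means were 21.6 ± 3.57 CPM in KO and 14.9 ± 5.85 CPM in WT liver (SD, n = 3 each), a log2 fold change of 0.53 (SE 0.26, 95% interval -0.06 to 1.13, edgeR adjusted p = 0.850, two-sided exact permutation p = 0.3). The difference was 0.90 without WT replicate 2 (edgeR adjusted p = 0.297) and 0.33 without WT replicate 1 (edgeR adjusted p = 0.920).

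The other ligands differed less between the genotypes than among the livers of 1 genotype. Pdgfb, the stellate cell mitogen, which endothelial cells, macrophages and platelets make, stood at 27.7, 31.2 and 29.1 CPM in KO liver, against 27.6, 22.5 and 31.8 CPM in WT liver. The WT libraries again enclosed the KO libraries, with WT replicate 2 lowest, where Pdgfrb was highest. Its log2 fold change was 0.10 (SE 0.13, 95% interval -0.20 to 0.41, edgeR adjusted p = 0.885), and -0.019 without WT replicate 2 (edgeR adjusted p = 0.963). Pdgfa, a ligand of receptor alpha, stood at 29.3, 22.3 and 26.4 CPM in KO liver, against 25.4, 23.5 and 20.5 CPM in WT liver. Its log2 fold change was 0.17 (SE 0.13, 95% interval -0.13 to 0.47, edgeR adjusted p = 0.856), and the groups overlapped. Pdgfc, the other ligand of receptor alpha, stood at 38.3, 42.8 and 41.6 CPM in KO liver, against 35.2, 37.6 and 42.6 CPM in WT liver. It had the narrowest interval of the 6, from -0.14 to 0.31 around a log2 fold change of 0.09 (SE 0.10, edgeR adjusted p = 0.877), which corresponds to 0.909 to 1.24 times the WT level.

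**Figure D2:**
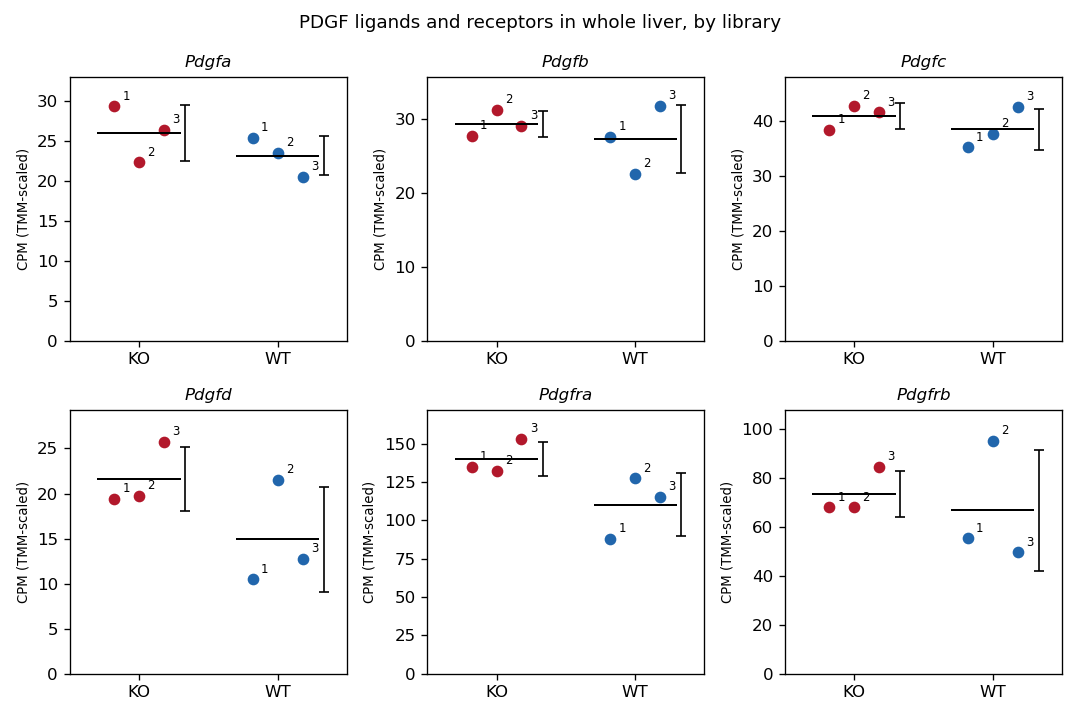
TMM-scaled CPM (linear axes from 0) of each PDGF gene in the KO and WT libraries, where each point is 1 library marked with its replicate number. Black lines are means and the bars beside them are the SD (n = 3). KO and WT points are apart in Pdgfra alone, and WT replicate 2 stands above WT replicates 1 and 3 in Pdgfd, Pdgfra and Pdgfrb.

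**Figure D3:**
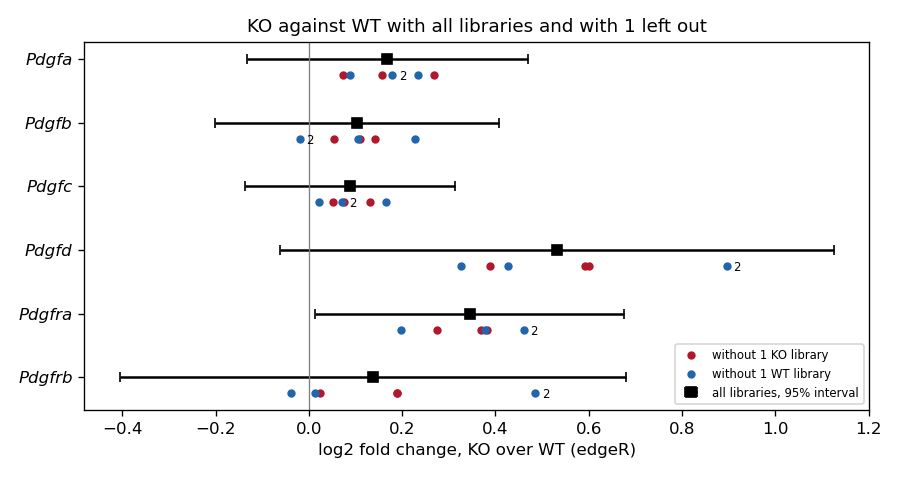
Log2 fold change of each PDGF gene, KO over WT, from edgeR with all 6 libraries (black squares, bars are 95% intervals) and with 1 library left out (red, a KO library; blue, a WT library; the point marked 2 lacks WT replicate 2). The interval of Pdgfra alone leaves out 0, at 0.01 to 0.68, and Pdgfd and Pdgfrb move most when a WT library is left out.

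Pdgfd and Pdgfrb varied most among the WT livers, followed by Pdgfra and, close to it, Pdgfb. Among the WT livers the highest library held 2.06 times the lowest level of Pdgfd, 1.92 times that of Pdgfrb and 1.45 times that of Pdgfra, against 1.33, 1.24 and 1.16 times among the KO livers. The same ratio was 1.24 for Pdgfa, 1.41 for Pdgfb and 1.21 for Pdgfc in WT and 1.31, 1.13 and 1.12 in KO livers. The biological coefficient of variation, edgeR's estimate of the spread between replicates beyond counting, was 0.23 for Pdgfd and 0.21 for Pdgfrb. Of the genes within a factor of 2 of their level, 94.7% and 95.4% had a lower one. It was 0.14 for Pdgfra, 0.13 for Pdgfa and Pdgfb and 0.11 for Pdgfc. Of the genes near their level, 79.1%, 64.8%, 69.5% and 34.9% had a lower one than Pdgfra, Pdgfa, Pdgfb and Pdgfc. The difference in spread between the genotypes was not tested.

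Pdgfd, Pdgfra and Pdgfrb shared their highs and lows over the libraries. Pearson's r of log2 CPM over the 6 libraries was 0.94 between Pdgfd and Pdgfra, 0.86 between Pdgfd and Pdgfrb and 0.64 between Pdgfra and Pdgfrb. After removal of the genotype means these were 0.89, 0.92 and 0.64. These are descriptions of 6 libraries that share a scaling and the same 3 WT livers, of which WT replicates 1 and 3 were low in all 3 genes. Pdgfb and Pdgfrb ran opposite to each other, with r = -0.67, and -0.87 after removal of the genotype means. Pdgfb and Pdgfc had r = 0.67, and 0.61 after that removal. Pdgfa had r between -0.48 and 0.33 with the others, and -0.90 with Pdgfc after that removal.

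Of the marker lists, those of portal fibroblasts and of bile duct cells had the highest r with Pdgfd and Pdgfra, and that of myofibroblasts with Pdgfrb. The mean of a list took in all its genes, also those that did not pass the filter. Each r with a list was taken without removal of the genotype means, so a difference between the genotypes enters it. Over the 6 libraries the mean log2 CPM of the cholangiocyte list had r = 0.91 with Pdgfd, 0.95 with Pdgfra and 0.61 with Pdgfrb, and that of the portal fibroblast list 0.93, 0.86 and 0.72. The myofibroblast list, which shares 6 of its 9 genes with the mesenchymal list, had r = 0.83, 0.74 and 0.85. Of its 8 tested members 4 had a positive log2 fold change, and its sum was 1915 to 2683 CPM in KO and 1637 to 2625 CPM in WT libraries. All 8 cholangiocyte markers were detected and tested, 7 with a positive log2 fold change, and their summed level was 447 to 568 CPM in KO and 302 to 429 CPM in WT libraries. At an unadjusted p under 0.05 (edgeR) 5 of the 8 were higher in KO liver, against 3.08% of all genes tested, and none passed after adjustment. Every KO library lay above every WT library in 4 of the 8, against 6.21% of all genes tested. Of the 9 portal fibroblast markers 7 were tested, 6 of them with a positive log2 fold change. The list summed to 214 to 275 CPM in KO and 139 to 255 CPM in WT libraries. KO replicate 2 had a sum of 214 CPM, below the 255 CPM of WT replicate 2, but a higher mean log2 CPM (3.33 against 3.04). That mean gives equal weight to Clec3b and Gli1, which did not pass the filter and reached at most 1.25 and 0.53 CPM. No marker of either list was at 0 in every library, and the part of these cells in the levels of Pdgfd and Pdgfra was not tested. The mesenchymal list of 16 stellate and matrix genes had r = 0.79, 0.74 and 0.77 with Pdgfd, Pdgfra and Pdgfrb, with 8 of its 16 members positive. Its sum was 2943 to 3614 CPM in KO and 2548 to 3738 CPM in WT libraries, so the WT libraries enclosed the KO libraries. With the mean of that list as a covariate, the log2 fold change of Pdgfra was 0.31, of Pdgfd 0.50 and of Pdgfrb 0.10 (edgeR adjusted p = 0.901, 0.901 and 0.933).

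Set against that list within each library, Pdgfra lay higher in every KO library than in every WT library. The share of all genes that do so was not counted. Its log2 CPM minus the mean of the mesenchymal list was 0.91, 0.92 and 1.08 in KO replicates 1 to 3 and 0.47, 0.71 and 0.73 in WT replicates 1 to 3. The same difference for Pdgfrb was -0.08, -0.03 and 0.23 in KO and -0.19, 0.29 and -0.49 in WT libraries, and these overlapped. Pdgfra was not set in this way against the cholangiocyte and portal fibroblast lists, which had a higher r with it. The cholangiocyte mean was itself higher in every KO library, at 4.50, 4.65 and 4.61, against 3.99, 4.47 and 4.31 in WT libraries. Markers of quiescent stellate cells did not follow the receptors, with r = 0.0015 for Pdgfra and 0.24 for Pdgfrb. The lists of platelets (r = -0.88), neutrophils (r = -0.82) and Kupffer cells, the resident liver macrophages (r = -0.78), ran against Pdgfrb. So did those of sinusoidal (r = -0.74) and vascular endothelium (r = -0.61), the acute phase (r = -0.69) and recruited macrophages (r = -0.45). The smooth muscle and pericyte list, whose cells include mural cells of vessels, also had a negative r with Pdgfrb, at -0.55. WT replicates 1 and 3, the WT livers low in Pdgfd, Pdgfra and Pdgfrb, were those with the higher acute phase level, a level that KO replicate 2 shared. With the acute phase mean as a covariate the log2 fold change was 0.33 for Pdgfra, 0.51 for Pdgfd and 0.13 for Pdgfrb (edgeR adjusted p = 0.773, 0.773 and 0.887). Neutrophil markers summed to 31.5 to 78.9 CPM in KO and 28.5 to 111 CPM in WT libraries, with all 5 tested members negative. Kupffer cell markers summed to 308 to 528 CPM in KO and 420 to 1047 CPM in WT libraries, highest in WT replicate 3. All 7 had a negative log2 fold change (median -0.77), as had all 7 sinusoidal endothelial markers (median -0.31). At an unadjusted p under 0.05 (edgeR) 2 and 1 of these were lower in KO liver, against 2.1% of all genes tested. None passed after adjustment. For Pdgfb, markers of recruited macrophages had r = 0.93 and those of smooth muscle and pericytes 0.92. Of the 7 smooth muscle and pericyte markers 6 passed the filter, and the mean took in all 7 with equal weight. Cnn1, which did not pass, was at 0.13, 0.72 and 0.18 CPM in KO and 0.25, 0.04 and 0.10 CPM in WT libraries. A gene so close to 0 can move this mean strongly, and r without it was not computed. Platelet markers, from cells that store PDGF-B, summed to 6.73 to 10.1 CPM in KO and 6.38 to 13.4 CPM in WT libraries, and 3 of the 6 passed the filter.

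**Figure D4:**
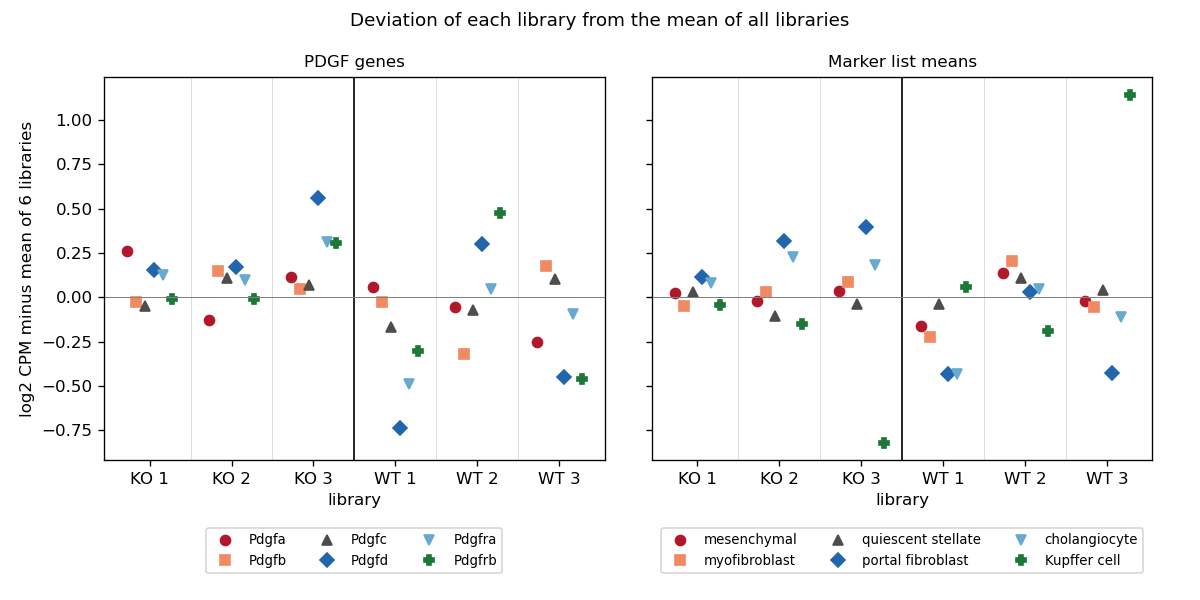
Deviation of each library from the mean of all 6 (log2 CPM), for the PDGF genes at the left and the means of 6 marker lists at the right, with the KO libraries left of the black line and the WT libraries right of it. Pdgfd, Pdgfra and Pdgfrb are low in WT replicates 1 and 3, and so are the portal fibroblast and cholangiocyte means. The mesenchymal (-0.16 and -0.02) and myofibroblast (-0.22 and -0.06) means are also below 0 in these libraries, by less. The Kupffer cell mean is highest in WT replicate 3 at 1.14.

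Among 13052 candidate genes with a mean of at least 1 CPM, the genes most like each member over the 6 libraries were taken by Pearson's r of log2 CPM. For Pdgfrb they were Cwc27, Snai2 and Samd5 (r = 0.99 each), of which Snai2 encodes a transcription factor of mesenchymal cells. Snai2 was at 8.10, 7.77 and 9.63 CPM in the KO and 6.69, 10.8 and 5.55 CPM in the WT libraries. For Pdgfra they included Camkk2 and Tcf24 (r = 0.99 each). For Pdgfd they were Grhl2, Enah and Ralgapa1 (r = 0.997, 0.997 and 0.996). Grhl2, a transcription factor of epithelia that include bile ducts, was at 7.80, 7.85 and 10.1 CPM in KO and 3.86, 8.70 and 5.17 CPM in WT libraries. For the remaining ligands they were Snrnp35, Tbx6 and Cyp2b13 for Pdgfa, Ube2d1, Pigf and Zfp954 for Pdgfb, and Kat6a, Clasp2 and Dpep1 for Pdgfc, with r from 0.98 to 0.99. With 6 libraries such values are common by the number of genes searched, as 453 candidates had r above 0.9 with Pdgfd, 317 with Pdgfra, 232 with Pdgfrb and 84 to 89 with the other 3 genes.

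Ratios of 2 genes within a library do not depend on the scaling, and 5 were compared, 4 of a ligand over a receptor and 1 of receptor alpha over receptor beta. Pdgfd over Pdgfrb was the 1 ratio whose groups did not overlap. Its log2 ratio of CPM was -1.80, -1.78 and -1.71 in KO replicates 1 to 3 and -2.40, -2.14 and -1.95 in WT replicates 1 to 3, a difference of 0.40 between the means (two-sided exact permutation p = 0.1, adjusted over the 5 ratios p = 0.5). Thus Pdgfd stood higher relative to Pdgfrb in 3 of 3 KO libraries, which did not pass the threshold in a design where 0.1 is the smallest p. Pdgfc over Pdgfra differed by -0.27, with -1.81, -1.62 and -1.88 in KO and -1.32, -1.76 and -1.44 in WT libraries (exact permutation p = 0.2, adjusted p = 0.5). The remaining ratios overlapped widely, with differences of -0.19 for Pdgfa over Pdgfra, -0.08 for Pdgfb over Pdgfrb and 0.17 for Pdgfra over Pdgfrb (exact permutation p = 0.5, 0.9 and 0.6). Each of these 3 had the other sign when 1 library was left out. The first was 0.031 without WT replicate 1 and the last -0.0073 without WT replicate 2, and Pdgfb over Pdgfrb was 0.032 without KO replicate 3, 0.041 without WT replicate 1 and 0.22 without WT replicate 3.

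Around the family, 6 lists with 92 genes in all were examined, covering the proteins that process and bind PDGF, the signalling proteins at the receptors, the Ras-MAPK and PI3K-Akt kinases, inhibitors of the signal, genes that growth factors induce, and the related ligands and receptors. Of the 92 genes 90 passed the filter, and none passed edgeR's test over all genes (smallest adjusted p = 0.850). At an unadjusted p under 0.05 stood 5 of the 90 (5.56%), against 5.19% of all genes tested, with 2 higher and 3 lower in KO liver. By library size alone 10 stood there, 7 of them higher, so both the count and its balance rest on the scaling. Every KO library lay above every WT library in 5 of the 90 (5.56%) and below in 5 (5.56%). Over all genes tested these shares were 6.21% and 4.9%. The median log2 fold change over the 90 was -0.05, against -0.0048 over all genes tested.

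Among the convertases that cut PDGF-A and PDGF-B, Pcsk6 and Furin had the smallest p, and neither passed the test. Pcsk6 was at 131, 132 and 109 CPM in KO and 191, 142 and 151 CPM in WT libraries, a log2 fold change of -0.37 (SE 0.14, edgeR adjusted p = 0.850). Furin was at 377, 337 and 318 CPM in KO and 426, 389 and 407 CPM in WT libraries, a log2 fold change of -0.24 (SE 0.11, edgeR adjusted p = 0.850). In both genes every KO library was below every WT library. The related convertase genes Pcsk5 and Pcsk7 overlapped between the genotypes, with log2 fold changes of -0.24 (SE 0.18) and -0.08 (SE 0.08). Plau, the urokinase that activates PDGF-D, stood at 0.23 on the log2 scale (SE 0.12), with overlap. Of this list of 11 genes 4 were positive, with a median of -0.08.

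Of the 23 genes of signalling proteins at or close to the activated receptors, 12 were positive and the median was 0.0021. Stat5b and Stat5a, transcription factors that receptor kinases and growth hormone activate, had log2 fold changes of -0.31 (SE 0.10) and -0.38 (SE 0.15). Stat5b was at 85.0, 88.5 and 91.2 CPM in KO and 121, 96.5 and 111 CPM in WT libraries, without overlap. In the Ras-MAPK and PI3K-Akt list 13 of 15 genes were negative with a median of -0.09, and the smallest p were those of the kinase genes Map2k2 (-0.25, SE 0.11), Akt1 (-0.21, SE 0.13) and Mtor (-0.15, SE 0.11). None of the genes of this list was at an unadjusted p under 0.05.

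Inhibitors of the signal had 4 of 12 genes positive and a median of -0.04. Spry2, a feedback inhibitor of Ras signalling, had a log2 fold change of 0.36 (SE 0.18), Cblb, a ubiquitin ligase, one of -0.31 (SE 0.16) and the phosphatase gene Ptpn1 one of -0.29 (SE 0.23). Among the genes that growth factors induce, 6 of the 14 tested were positive with a median of -0.08. Egr1, an immediate early transcription factor, was at 65.3, 62.5 and 59.8 CPM in KO and 54.9, 58.8 and 50.9 CPM in WT libraries, without overlap, at 0.19 (SE 0.09). Junb (-0.39, SE 0.19) and Ier3 (-0.55, SE 0.35) lay the other way.

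In the list of related ligands and receptors 9 of the 15 genes tested were positive, with a median of 0.04. Vegfa, the main growth factor of endothelium and a relative of the PDGF ligands, was at 85.0, 86.2 and 88.8 CPM in KO and 76.5, 73.4 and 69.0 CPM in WT libraries. Its log2 fold change was 0.25 (SE 0.08, edgeR adjusted p = 0.850), and the groups did not overlap. Flt3, a receptor of dendritic cells and their precursors from the same receptor class as the PDGF receptors, was at 4.84, 4.17 and 4.14 CPM in KO and 2.77, 3.40 and 3.30 CPM in WT libraries. Its log2 fold change was 0.47 (SE 0.17, edgeR adjusted p = 0.850), again without overlap. Pdgfrl, a gene that resembles the PDGF receptors and whose role is less well known, was at 0.48 (SE 0.25) with overlap.

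**Figure D5:**
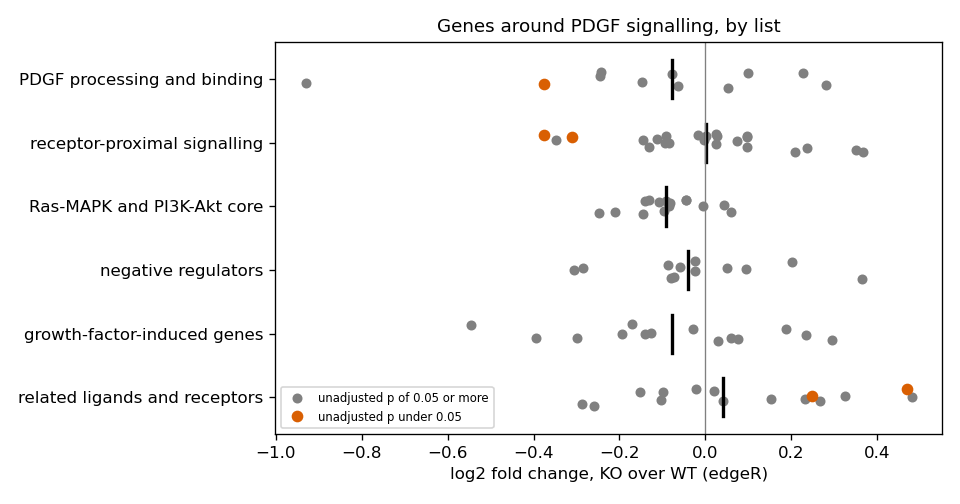
Log2 fold change, KO over WT (edgeR), of the 90 tested genes of 6 lists around PDGF signalling. Each point is 1 gene, spread vertically for legibility, orange where the unadjusted p was under 0.05, and black bars are list medians. The medians lie between -0.09 and 0.04, and the 5 orange points are split into 2 higher and 3 lower in KO liver.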

How the data were processed

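Poly(A)-enriched RNA of 6 livers was made into directional libraries and sequenced on an Illumina NovaSeq, per the labels' protocols. The deposited table holds raw counts per Ensembl gene, without normalization by the authors. The submitters' processing notes name DESeq2 1.30.0, featureCounts 1.6.3 and STAR 2.7.6a, and the builds mm10 and GRCm38, without saying what each did. Which annotation release and strand setting were used is not given in the sources used here. Symbols, positions and lengths were looked up in GENCODE M21 (GRCm38), with a match for 52135 of 55416 IDs (94.1%). TPM values were computed here from the counts over matched genes.

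The main test was edgeR 4.0.16 (glmQLFit, glmQLFTest) in R 4.3.3 on all 6 libraries, with TMM, filterByExpr (minimum count 10, minimum total 15), a model of genotype alone and Benjamini-Hochberg adjustment over 17083 genes at 0.05. Fold changes are KO over WT, intervals are 95% intervals, and log2 CPM used a prior count of 2. Fold changes had a median SE of 0.16 on the log2 scale. Alternatives were other scalings and filters, DESeq2 1.42.0 (default independent filtering), limma-voom (limma 3.58.1), a robust fit, a replicate block, covariates (the means of the acute phase and mesenchymal lists), and each library left out. The fit was tested on simulated counts. No libraries agreed within sampling noise (chi-square per degree of freedom 11.7 to 79.6, over genes with at least 25 reads in a pair). The members, lists and tests were chosen with earlier results of these data known. Named were all members, Ephb2, the 3 genes of each list with the smallest p, the 3 genes most like each member, and markers and related receptors whose values stand beside a result, except for some genes that are not reported here.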

Additional observations from a re-analysis of the deposited data

How the results depend on the processing

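The 6 PDGF genes stayed short of edgeR's or the other tools' threshold under all 17 alternatives, with adjusted p from 0.297 to 1.00. Pdgfa, Pdgfc, Pdgfd and Pdgfra kept a positive log2 fold change in all of them, with ranges of 0.07 to 0.27, 0.02 to 0.17, 0.33 to 0.90 and 0.20 to 0.46. With 1 library left out, Pdgfb ran from -0.019 (without WT replicate 2) to 0.23 and Pdgfrb from -0.038 (without WT replicate 3) to 0.48. Under the same omissions the log2 ratio of Pdgfa over Pdgfra ran from -0.32 to 0.031, of Pdgfb over Pdgfrb from -0.50 to 0.22 (0.032 without KO replicate 3, 0.041 without WT replicate 1 and 0.22 without WT replicate 3) and of Pdgfra over Pdgfrb from -0.0073 to 0.39. The ratio of Pdgfd over Pdgfrb kept its sign, from 0.28 to 0.50. The cause was not tested.

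Over all genes, calls numbered 3 without a count filter, 8 by DESeq2 and 0 to 2 with 1 library left out (2 without WT replicate 3). Genes at an unadjusted p under 0.05 numbered 1390 without a filter, where more genes were tested, and 452 (without KO replicate 3) to 1858 (without WT replicate 2) with 1 library left out. Among the 92 genes around PDGF signalling the 5 became 10 by library size alone, 8 by upper-quartile scaling, 11 without a filter, 9 with the mesenchymal covariate, and 2 (without WT replicate 1) to 19 (without WT replicate 2) with 1 library left out, among them 9 without KO replicate 2.

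The replicate number as a block gave 0 calls and 537 genes at an unadjusted p under 0.05. Same-numbered libraries had correlations of their deviations of -0.03, -0.44 and -0.31, and differently numbered ones from -0.12 to 0.37. With 3 libraries per genotype these values cannot settle whether a shared number marks a litter or a batch. With the block Pdgfra stood at 0.36 and Pdgfd at 0.59. With the longest transcript as length, the mean levels became 33.6 TPM in KO and 28.0 TPM in WT liver for Pdgfa, 26.5 and 22.9 TPM for Pdgfb and 30.9 and 27.2 TPM for Pdgfc. With 3 libraries per genotype and SEs of 0.10 to 0.26, differences of the size seen in the PDGF genes did not reach the threshold after adjustment over all genes.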
